A study of Mus musculus with 6 samples.

Results

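The genes described here are 55 genes of the cell cycle, DNA replication and mitosis in cultured CD8+ effector T (Teff) cells with and without Scd-1, the stearoyl-CoA desaturase that makes monounsaturated fatty acids. They were listed by gene symbol, with earlier results of these data known, and all 55 symbols were found among the 34745 genes of the 6 libraries. They were sorted by role into 15 genes of the G1/S transition, 14 of DNA replication and 26 of G2 and mitosis (G2/M). The study asked how loss of Scd-1 bears on the differentiation of CD8+ T cells, and RNA-seq was done on 3 libraries of WT and 3 of Scd-1-/- Teff, numbered 1 to 3 in each genotype.

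The WT mice were C57BL/6J and were bought, whereas the Scd-1-/- mice (B6.129-Scd1tm1Ntam/J) lacked the gene in the whole body and came from another laboratory, so genotype and source cannot be told apart. All were male and 6 to 8 weeks old. Splenic CD8+ T cells of both genotypes were isolated with a kit, cultured with anti-CD3 (5 μg/mL), anti-CD28 (0.5 μg/mL) and IL-2 (100 U/mL) for 3 days, kept for 3 more days with IL-2 alone and collected on day 6. Neither the labels nor the methods say which animals a library came from or what a replicate number stands for, so p-values here measure the spread between these libraries, which may be technical in part.

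A dividing cell passes the G1/S transition when cyclin D with Cdk4 or Cdk6, and then cyclin E with Cdk2, phosphorylate the retinoblastoma protein and free E2F factors. E2F factors switch on the genes of replication, and in S and G2 B-Myb, bound to the MuvB complex, and FoxM1 switch on the genes of mitosis, which the DREAM complex represses in quiescence and G1, often through a CHR element and CCAAT boxes in their promoters. Activated CD8+ T cells are among the fastest dividing mammalian cells, and IL-2 keeps them cycling after the antigen signal ends.

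Libraries held 14034479 to 15866216 counts, a depth at which 0 counts could hide as many as 3, which is 0.189 to 0.214 CPM (counting error only). The targeted gene Scd1 had 4272, 3074 and 3761 counts in WT and 30, 36 and 20 in Scd-1-/- libraries, as labelled. All 8 T cell markers looked at were expressed (Cd3d, Cd3e, Cd3g, Cd2, Cd28 and Lck, with the CD8 genes Cd8a and Cd8b1). Ms4a1, Pax5, Hbb-bs, Alas2 and Adgre1 were at 0. Markers of other cells that reached 1 FPKM (counts scaled to transcript length and library total) were Zbtb7b, Cd14, Cd79b and Klrb1c. The summed B cell list was at 9.41 to 10.7 FPKM in WT and 3.13 to 7.99 in Scd-1-/- libraries, the NK list at 0.501 to 1.16 and 1.82 to 9.39, and the myeloid list, which includes Cd14, at 0.228 to 0.608 and 1.79 to 2.07, with no overlap between genotypes for any of the 3 lists. Of the T cell markers, Cd8a was lower in every Scd-1-/- library (36.6, 27.9 and 33.7 FPKM) than in any WT library (43.2, 47.6 and 47.1 FPKM), at a log2 fold change of -0.46 (adjusted p = 0.297, edgeR with Benjamini-Hochberg adjustment). Cd8b1 was lower in the Scd-1-/- library of each same-numbered pair, with overlap of the groups (log2 fold change -0.30, adjusted p = 0.647, same edgeR test). The part of these markers in the results below was not tested.

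As a whole the cycle genes took a modest and similar share of the RNA in both genotypes. The 55 genes held 0.993%, 1.19% and 1.23% of the counts of WT replicates 1, 2 and 3, and 0.913%, 1.06% and 1.07% of those of Scd-1-/- replicates 1, 2 and 3. The Scd-1-/- share was the lower of each same-numbered pair, but the genotypes overlapped, and replicate 1 was the lowest library of each. In bulk RNA, fewer cycling cells and less RNA per cell cannot be told apart. The most abundant members per length were Mcm5, Cdc20, Rrm1, Ccnb2 and Pcna, with means over the 6 libraries of 231, 151, 138, 137 and 127 FPKM. Ccnd1 was the only member with a mean under 1 FPKM. It had 5, 0 and 2 counts in the WT and 7, 0 and 0 in the Scd-1-/- ones, near or under that limit of 3, so no fold is given, and 54 members were left for the test.

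**Figure D1:**
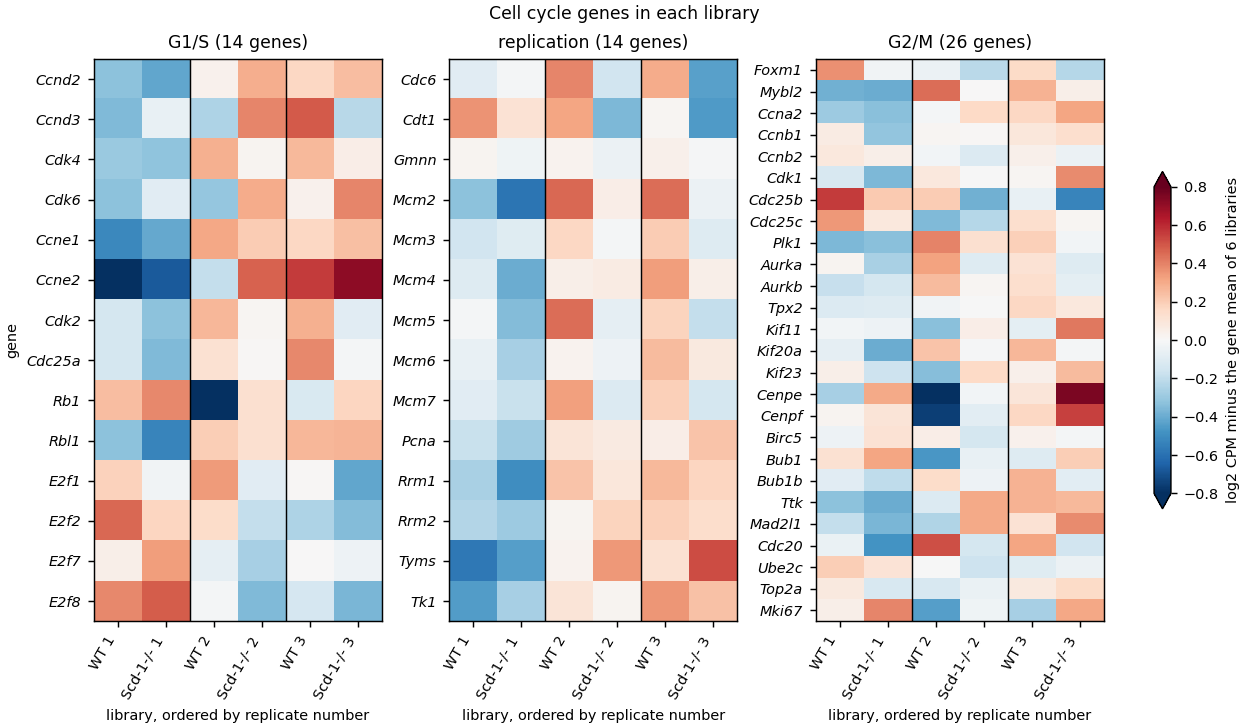
Colour shows the log2 CPM of each tested member minus its mean over the 6 libraries, in G1/S, replication and G2/M genes, with libraries ordered by replicate number (1, 2, 3) and WT left of Scd-1-/- within each number. Most G1/S and replication genes are blue in both libraries of replicate 1, and no class turns from one colour to the other between genotypes; the scale ends at 0.8 in size.

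Between genotypes, 0 of the 54 tested members passed the thresholds of the study, which ask for a 2-fold change in either direction and p under 0.001 and which, in edgeR's quasi-likelihood test, 0.738% of the 9627 tested genes met. An adjusted p under 0.05 (Benjamini-Hochberg, over all 9627 genes) was reached by 0 members and by 0.114% of all genes. At an unadjusted p under 0.05 there were 5 members (9.26%), beside 10.1% of all genes: Mki67 was the 1 with a higher value in Scd-1-/- Teff (all genes 5.42%), and Aurka, Cdc20, Cdt1 and Mcm5 had lower ones (all genes 4.68%). DESeq2 gave 0 members with an adjusted p under 0.05, beside 2.76% of all genes, and 7 at an unadjusted p under 0.05, beside 11.1% of all genes. The 95% interval of the log2 fold change lay within 1 of 0 for 50 of the 54 members, so that a change of 2-fold or more was outside the interval for these, and the exceptions were Ccne2, Rb1, Cdc25b and Cenpe.

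With the replicate number as a block, which takes out what same-numbered libraries share, 3 of the 54 members (5.56%) had an adjusted p under 0.05, beside 4.70% of all genes. Cdc20 and Cdc25b were lower and Cenpe was higher in Scd-1-/- Teff, and all 3 are G2/M genes. Over all genes 2.64% were called higher and 2.06% lower. None of the 3 reached the fold threshold of the study, which 1.91% of all genes passed together with its p in the blocked fit. At an unadjusted p under 0.05 the blocked fit held 20 members (37.0%; all genes 22.4%), of which 7 were higher (all genes 11.3%) and 13 lower (all genes 11.2%). The members were more abundant than all genes (median 25.4 against 7.25 FPKM), with smaller blocked standard errors (median 0.104 against 0.141). Their median log2 fold change in size, without the block, was 0.182 beside 0.178 for all genes. The part of this precision in the shares called was not tested. Replicates 2 and 3 alone gave 7 of the 54 members with an adjusted p under 0.05, beside a similar share, 12.6%, of all genes. These were Cdc20, Cdc25b, Cdc6, Cdt1, Mcm2, Mcm5 and Mcm7, all lower, and Cenpe was not among them. How the calls over all genes split by direction in that fit was not counted.

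The G1/S genes are taken first. Of the 14 tested, 7 had a log2 fold change (Scd-1-/- over WT) above 0 and 7 below, with a median of -0.03 beside -0.0005 for all genes tested, and none had an adjusted p under 0.05 with or without the block. At an unadjusted p under 0.05 there were 0 without the block (all genes 10.1%) and 5 with it (35.7%; all genes 22.4%).

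Cdk4, one of the kinases that cyclin D activates, was the most abundant member of the class. Its FPKM was 47.8, 73.1 and 73.4 in WT replicates 1, 2 and 3 and 47.0, 60.4 and 60.9 in Scd-1-/- replicates 1, 2 and 3. Replicate 1 was the lowest library of each genotype, and the genotypes overlapped (log2 fold change -0.18, SE 0.189, adjusted p = 0.830 in edgeR, Benjamini-Hochberg adjusted). Cdk6, its close relative and partner of the same cyclins, was at 6.61, 6.85 and 8.92 FPKM in WT and 7.82, 10.4 and 10.9 FPKM in Scd-1-/- libraries. The Scd-1-/- library was above the WT library of the same number in all 3 pairs, while the groups overlapped through WT replicate 3 (log2 fold change 0.40, SE 0.175, adjusted p = 0.497, and 0.0787 with the block, edgeR with Benjamini-Hochberg adjustment). With offsets for transcript length and GC content together with the block, the adjusted p of Cdk6 was under 0.05. Of the D cyclins, Ccnd2 had a mean of 16.4 FPKM, Ccnd3 of 4.96 FPKM and Ccnd1, as given above, next to none.

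Cdk2, the kinase of cyclins E and A, was at 29.6, 40.1 and 41.6 FPKM in WT and 26.0, 33.5 and 30.7 FPKM in Scd-1-/- libraries. Its Scd-1-/- library was the lower of each pair, with overlap of the groups (log2 fold change -0.28, SE 0.171). Cyclin E1 was at 27.0 ± 7.84 FPKM in WT and 26.7 ± 6.32 in Scd-1-/- Teff (means ± SD, 3 libraries each), a log2 fold change of 0.01. Cyclin E2 was far less abundant, at 1.50 ± 0.775 and 1.85 ± 0.809 FPKM (SD, n = 3 each), and its fold change had the largest standard error of the tested G1/S genes, 0.456 on the log2 scale.

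Rb1, which holds E2F factors in check, was at 5.46, 2.66 and 4.41 FPKM in WT and 6.02, 5.09 and 5.18 FPKM in Scd-1-/- libraries. WT replicate 2 was the lowest of the 6, and WT replicate 1 lay among the Scd-1-/- libraries (log2 fold change 0.40, SE 0.266). The log2 fold change was 0.16 without WT replicate 2 and 0.66 without WT replicate 1. E2f1, an activator of S phase genes, was at 17.3, 19.7 and 16.1 FPKM in WT and 15.0, 14.6 and 11.5 FPKM in Scd-1-/- libraries. All Scd-1-/- libraries were below all WT libraries, yet E2f1 did not pass the test (log2 fold change -0.35, SE 0.163, adjusted p = 0.532, and 0.119 with the block, edgeR with Benjamini-Hochberg adjustment). E2f2, a second activator, was at 42.2, 34.6 and 27.1 FPKM in WT and 34.6, 27.3 and 24.2 FPKM in Scd-1-/- libraries, with replicate 1 the highest of each genotype (log2 fold change -0.25, SE 0.215, and -0.07 without WT replicate 1). The repressors E2f7 and E2f8 had log2 fold changes of 0.04 and -0.11.

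The replication genes lay lower in Scd-1-/- Teff more often than higher, but none passed the test. Of the 14, 11 had a log2 fold change below 0, with a median of -0.15, and 7 were lower in all 3 same-numbered pairs, against 1 that was higher in all 3. Over all genes, 50.1% had a log2 fold change below 0 and 22.9% were lower in all 3 pairs. At an unadjusted p under 0.05 there were 2 replication genes without the block (14.3%; all genes 10.1%) and 6 with it (42.9%; all genes 22.4%).

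Licensing loads the MCM helicase onto origins. Cdt1, which brings the MCM ring to origins together with Cdc6, was at 106, 105 and 87.5 FPKM in WT and 89.7, 65.2 and 60.4 FPKM in Scd-1-/- libraries. The Scd-1-/- library was the lower of each pair, with Scd-1-/- replicate 1 above WT replicate 3 (log2 fold change -0.45, SE 0.186, adjusted p = 0.473, and 0.0561 with the block, edgeR with Benjamini-Hochberg adjustment). Cdc6 was at 8.33, 11.9 and 11.4 FPKM in WT and 8.77, 8.10 and 6.57 FPKM in Scd-1-/- libraries. Only its replicate 1 pair went the other way, with Scd-1-/- above WT (log2 fold change -0.41, SE 0.180). Geminin (Gmnn), the inhibitor of Cdt1, was at 42.8 ± 1.20 FPKM in WT and 40.4 ± 0.330 in Scd-1-/- Teff (means ± SD, 3 libraries each), a log2 fold change of -0.06 with a SE of 0.118.

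All 6 subunits of the MCM helicase had log2 fold changes below 0, from -0.42 to -0.15 with a median of -0.24, and 4 were lower in all 3 pairs. The subunits form 1 complex and share their libraries, so they are not separate pieces of evidence. Mcm5 was at 221, 311 and 264 FPKM in WT and 176, 216 and 196 FPKM in Scd-1-/- libraries. The highest Scd-1-/- library lay just under the lowest WT library (log2 fold change -0.42, SE 0.151, adjusted p = 0.407, and 0.0529 with the block, edgeR with Benjamini-Hochberg adjustment). Mcm2 had a log2 fold change of nearly the same size, -0.41, with an SE of 0.252, and its replicate 1 libraries were far below the others. In a mean over the 6 subunits of log2 CPM, each centred on its mean over the libraries, WT replicates were at -0.12, 0.25 and 0.27 and Scd-1-/- replicates at -0.31, -0.02 and -0.06.

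The sliding clamp Pcna was at 109.9, 136 and 135 FPKM in WT and 102, 133 and 146 FPKM in Scd-1-/- libraries, with no order between genotypes (log2 fold change 0.03, SE 0.161). Its value is uncertain, because the pseudogene Pcna-ps2 held a mean of 2753 counts and how reads shared between them were counted is not given in the sources used here. Rrm1, the large subunit of ribonucleotide reductase, was at 112, 159.9 and 168 FPKM in WT and 94.6, 145 and 151 FPKM in Scd-1-/- libraries. Replicate 1 was the lowest of each genotype, and the Scd-1-/- library was the lower of each pair (log2 fold change -0.15, SE 0.216). Its partner Rrm2 had a log2 fold change of 0.02, thymidine kinase Tk1 of -0.03 and thymidylate synthase Tyms of 0.31.

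**Figure D2:**
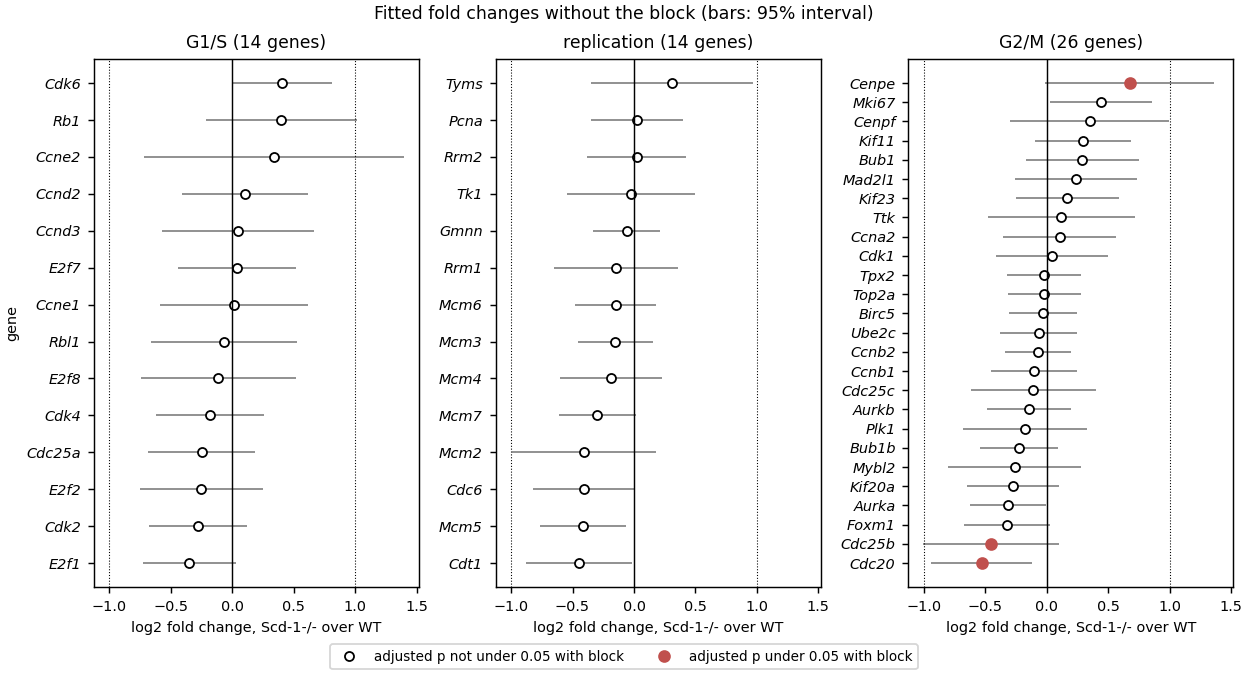
Each point is the log2 fold change (Scd-1-/- over WT) of 1 tested member from the fit without the block, with its 95% interval, sorted within G1/S, replication and G2/M genes; dotted lines mark a log2 fold change of 1 in size. Filled points are Cenpe, Cdc25b and Cdc20, which had an adjusted p under 0.05 with the block; in this fit the intervals of Cenpe and Cdc25b hold 0, and those of 5 members (Cdc20, Mki67, Aurka, Cdt1 and Mcm5) do not.

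The G2/M genes spread to both sides. Of the 26, 10 had a log2 fold change above 0 and 16 below, the median was -0.05, and the class held both the highest and the lowest value of all members. With the block, 3 (11.5%) had an adjusted p under 0.05, beside 4.70% of all genes. At an unadjusted p under 0.05 there were 3 without the block (11.5%; all genes 10.1%) and 9 with it (34.6%; all genes 22.4%).

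Cdc20, which activates the anaphase-promoting complex (APC/C) to start anaphase, had the lowest log2 fold change of all members. Its gene (ENSMUSG00000006398) lies on chromosome 4 of GRCm38 from 118432901 to 118437352, minus strand. It was at 139, 211 and 189 FPKM in WT and 104, 133 and 130.5 FPKM in Scd-1-/- libraries. All Scd-1-/- libraries were below all WT libraries, WT replicate 1 only narrowly above Scd-1-/- replicate 2. The log2 fold change was -0.53 (SE 0.177, adjusted p = 0.375), and with the block -0.52 (SE 0.0942, adjusted p = 0.0271), edgeR with Benjamini-Hochberg adjustment. Without any 1 library it stayed between -0.67 and -0.39. Ube2c, the E2 enzyme of the same APC/C, was at 96.3, 85.6 and 82.3 FPKM in WT and 90.9, 76.0 and 81.5 FPKM in Scd-1-/- libraries. Its genotypes overlapped widely, with a log2 fold change of -0.07 (SE 0.136).

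Cdc25b, a phosphatase that removes the inhibitory phosphates of Cdk1, lies on chromosome 2 of GRCm38 from 131186949 to 131198497, plus strand (ENSMUSG00000027330). It was at 42.5, 33.9 and 28.9 FPKM in WT and 33.5, 22.4 and 20.0 FPKM in Scd-1-/- libraries. Replicate 1 was the highest library of each genotype, and Scd-1-/- was the lower of each pair, so the groups overlapped while the pairs did not. The log2 fold change was -0.45 (SE 0.238, adjusted p = 0.585) and with the block -0.47 (SE 0.0953, adjusted p = 0.0369), edgeR with Benjamini-Hochberg adjustment. Leaving out 1 library, without the block, gave log2 fold changes from -0.71 (without Scd-1-/- replicate 1) to -0.27 (without WT replicate 1). Its relatives Cdc25a, counted here with the G1/S genes, and Cdc25c had log2 fold changes of -0.25 and -0.11. Cyclin B2 (Ccnb2), an activating partner of Cdk1, was at 143, 136 and 145 FPKM in WT and 139.8, 127 and 131 FPKM in Scd-1-/- libraries. These values overlapped, at a log2 fold change of -0.07 (SE 0.114), and those of Ccnb1, Ccna2 and Cdk1 were -0.10, 0.11 and 0.04.

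Cenpe, a kinesin motor of the kinetochore that carries chromosomes to the spindle equator, had the highest log2 fold change of all members. The gene (ENSMUSG00000045328) lies on chromosome 3 of GRCm38 from 135212537 to 135273611, plus strand. It was at 2.05, 1.38 and 2.77 FPKM in WT and 3.06, 2.47 and 4.18 FPKM in Scd-1-/- libraries, from counts of 183 to 626. The Scd-1-/- library was the higher of each pair, but Scd-1-/- replicate 2 lay under WT replicate 3. The log2 fold change was 0.67 (SE 0.296, adjusted p = 0.507) and with the block 0.69 (SE 0.138, adjusted p = 0.0345), edgeR with Benjamini-Hochberg adjustment. Without the block, it ranged from 0.44 (without Scd-1-/- replicate 3) to 0.92 (without WT replicate 3) when 1 library was left out.

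Mki67 and Aurka were singled out after their values were seen, as members at an unadjusted p under 0.05. Mki67, the proliferation marker that coats mitotic chromosomes, was at 13.3, 9.65 and 11.2 FPKM in WT and 16.9, 12.7 and 16.0 FPKM in Scd-1-/- libraries. It was higher in Scd-1-/- in every pair and the groups overlapped through replicate 2 of Scd-1-/- (log2 fold change 0.44, SE 0.178, adjusted p = 0.468, and 0.0510 with the block, edgeR with Benjamini-Hochberg adjustment). Aurka, a kinase of the spindle poles, was at 34.8, 43.7 and 38.8 FPKM in WT and 28.6, 32.4 and 31.9 FPKM in Scd-1-/- libraries. All Scd-1-/- libraries were below all WT libraries (log2 fold change -0.31, SE 0.133, adjusted p = 0.488, and 0.122 with the block, edgeR with Benjamini-Hochberg adjustment). Top2a, another common marker of proliferation, went with neither, at 46.7 ± 3.91 FPKM in WT and 45.4 ± 4.62 in Scd-1-/- Teff (means ± SD, 3 libraries each) and a log2 fold change of -0.02.

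The other mitotic genes had log2 fold changes between -0.32 and 0.35. The transcription factors Foxm1 and Mybl2 had log2 fold changes of -0.32 and -0.26, the kinases Plk1 and Aurkb of -0.17 and -0.14 and the spindle assembly factor Tpx2 of -0.02. Of the genes of the spindle checkpoint, which stops Cdc20 until all chromosomes are attached, Bub1, Mad2l1 and Ttk had values of 0.29, 0.24 and 0.12 and Bub1b of -0.23. Of the kinesins of the spindle and midzone, Kif11, Kif23 and Kif20a had values of 0.30, 0.17 and -0.28. Cenpf, a kinetochore protein, was at 0.35 and Birc5 (survivin) at -0.03, and none of these had an adjusted p under 0.05 with or without the block.

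Over the 54 members, the FPKM of the Scd-1-/- libraries lay wholly on one side of the WT libraries for 6 (11.1%), beside 16.0% of all genes. All 6 were below WT (all genes 8.32%) and 0 above (all genes 7.67%), the 6 being E2f1, Gmnn, Mcm5, Foxm1, Aurka and Cdc20. By pairs of the same number, 20 members (37.0%) were lower in Scd-1-/- in all 3, beside 22.9% of all genes, and 8 (14.8%) were higher in all 3, beside 22.1% of all genes.

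**Figure D3:**
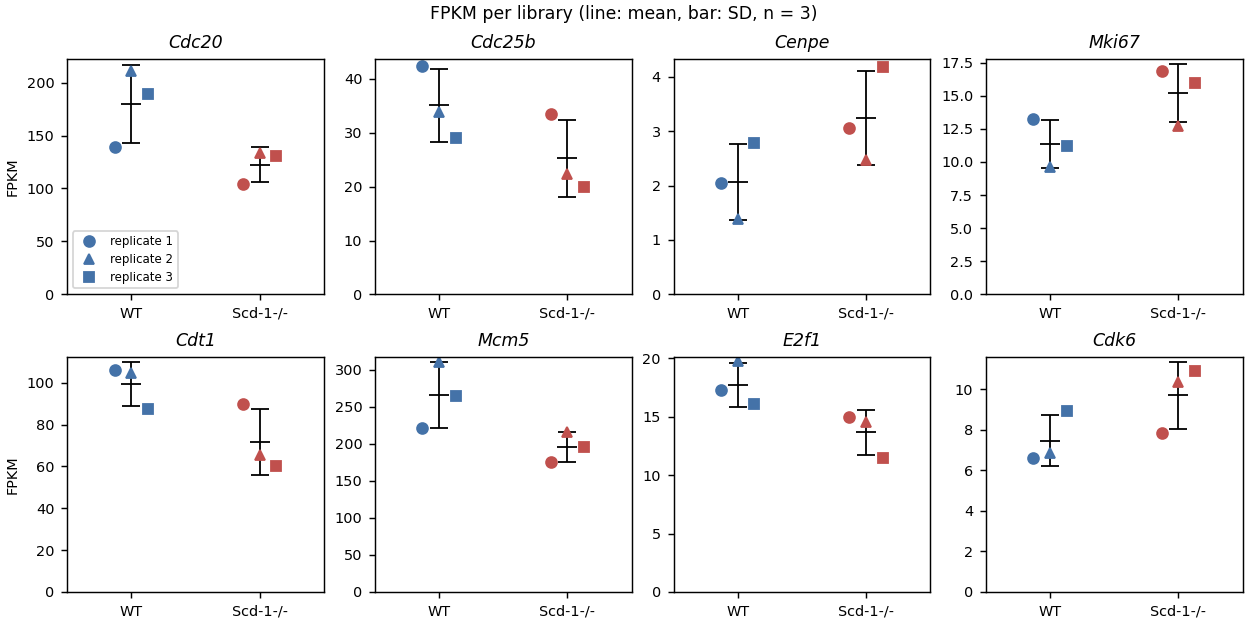
FPKM of 8 members in each library, with symbols for replicates 1, 2 and 3, the mean as a line and the SD as a bar (n = 3 per genotype); each axis starts at 0. Cdc20, Mcm5 and E2f1 are lower in every Scd-1-/- library than in any WT library, whereas Cdc25b, Cdt1, Cenpe, Mki67 and Cdk6 part only within replicate numbers.

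More members were called by replicate number than by genotype. In edgeR's quasi-likelihood test of the replicate number, with genotype in the model, 16 of the 54 members (29.6%) had a Benjamini-Hochberg adjusted p under 0.05, beside 15.9% of all genes. They were 7 of 14 G1/S genes, 4 of 14 replication genes and 5 of 26 G2/M genes. Here too the members were more abundant than all genes, and the part of this in the share was not tested. Replicate 2 against replicate 1 gave 14 members (25.9%) with an adjusted p under 0.05, beside 16.1% of all genes. Of these, 11 were higher and 3 lower in replicate 2. Replicate 3 against replicate 1 gave 18 (33.3%), beside 21.4% of all genes, with 14 higher and 4 lower in replicate 3. The direction of the calls over all genes was not counted for these contrasts. Replicate 3 against replicate 2 gave 0 in edgeR, beside 0.0% of all genes, and 3 (5.56%) at an unadjusted p under 0.05, beside 3.36% of all genes.

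Both libraries of replicate 1 had a lower FPKM than each of the other 4 for 24 members (44.4%), beside 23.0% of all genes, and a higher one for 4 (7.41%), beside 21.6% of all genes. The 24 were 7 G1/S genes, among them Ccne1, Ccne2, Cdk2 and Ccnd2, 8 replication genes, among them Mcm2, Rrm1, Rrm2, Tyms and Tk1, and 9 G2/M genes, among them Ccna2, Cdk1 and Plk1. Ccne1, chosen after its values were seen, shows the pattern. It was at 18.1, 32.7 and 30.3 FPKM in WT and 19.4, 30.1 and 30.5 FPKM in Scd-1-/- libraries, so that replicate 1 of each genotype stood well under the other 4 and the genotypes lay close within each number. Its log2 difference of replicate 2 from replicate 1 was 0.72, and of replicate 3 from replicate 1 was 0.67.

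The members that were higher in both replicate 1 libraries were the repressor E2f8, with E2f2, Rb1 and Ube2c. E2f8 was at 9.96, 7.71 and 7.26 FPKM in WT and 10.7, 6.07 and 5.94 FPKM in Scd-1-/- libraries, a log2 difference of -0.69 between replicates 3 and 1. Cenpe was called by replicate number as well, with replicate 2 the lowest and replicate 3 the highest of each genotype, but none of its differences between a pair of numbers had an adjusted p under 0.05 (edgeR with Benjamini-Hochberg adjustment).

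The class means show the same order. The mean of centred log2 CPM over the 14 replication genes was -0.15, 0.19 and 0.21 in WT and -0.26, 0.00 and 0.00 in Scd-1-/- replicates 1, 2 and 3. Replicate 1 was the lowest of each genotype, and the Scd-1-/- library was the lower of each pair, by 0.10, 0.19 and 0.21. Over the 14 G1/S genes it was -0.14, 0.00 and 0.15 in WT and -0.13, 0.08 and 0.04 in Scd-1-/- libraries, with no common order of the genotypes. Over the 26 G2/M genes it was -0.02, -0.06 and 0.10 in WT and -0.11, -0.03 and 0.11 in Scd-1-/- libraries, where neither genotype nor replicate 1 stood apart. The first principal component of all tested genes, with 42.9% of the variance, also parted replicate 1 of both genotypes from the other 4 libraries. The second, with 36.3%, parted the genotypes. On it WT replicates 1, 2 and 3 were at 0.962, 33.3 and 28.0 and Scd-1-/- replicates at -20.2, -18.2 and -23.8.

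**Figure D4:**
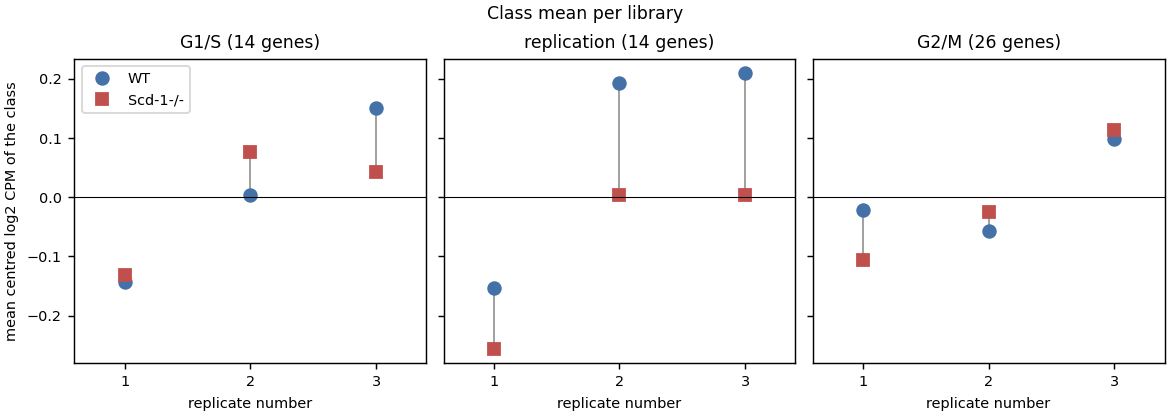
Each point is the mean over a class of log2 CPM centred on the gene mean of the 6 libraries, for WT and Scd-1-/- libraries by replicate number, with a line joining same-numbered libraries. Replicate 1 is lowest in the G1/S and replication panels, and in the replication panel the Scd-1-/- point is the lower of each pair.

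The fold changes of the members went with the GC content of their transcripts. Across the 54 members the Spearman rank correlation between the log2 fold change and the GC content of the longest annotated transcript was -0.67, and within the 26 G2/M genes -0.80, while across 9599 genes with an annotated transcript it was -0.32. These are descriptions across genes of the same 6 libraries, and genes are not independent replicates. Of the 27 members with the higher GC content (48.4% to 58.3%), 24 had a log2 fold change below 0, with a median of -0.25. Of the 27 with the lower GC content (36.3% to 47.8%), 17 had one above 0, with a median of 0.10. The differences between replicates 3 and 2, fitted across both genotypes in the same libraries, had correlations with GC content of -0.78 across the members and -0.48 across all genes.

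Cenpe, with 42.9% GC, and Cdc20, with 55.6% GC, sit near opposite ends of this relation. With offsets that take out a smooth dependence on transcript length and GC content in each library, the correlation with GC content across the members was -0.33, and within the G2/M genes -0.55. The correlation with transcript length across the members was 0.36 before the offsets and 0.47 with them (G2/M genes 0.57 and 0.63), so that among the members the relation with GC content was weaker with the offsets and that with length was not, whereas across all genes the offsets left 0.03 for length and 0.02 for GC content. With the offsets, Cenpe was at 0.65, Cdc20 at -0.47, Cdc25b at -0.36, Mki67 at 0.53, Cdt1 at -0.34 and Mcm5 at -0.32. Other members moved more, with E2f2 at -0.06, Foxm1 at -0.15, Mybl2 at -0.08 and E2f1 at -0.22. Of the 54 members, 13 had a value of the same sign and smaller by over 1.5 times with the offsets, 12 had one larger by over 1.5 times, and 7 turned in sign (Ccne2, Pcna, Rrm2, Tk1, Tpx2, Ttk and Ube2c). With these offsets and the block, 5 members had an adjusted p under 0.05 (Cdc20, Cdc25b, Cenpe, Cdk6 and Mki67), beside 3.29% of all genes, and the median of the replication genes was -0.19 with the offsets alone. The number of members that differed by replicate number was 17 with the offsets, beside 18.5% of all genes.

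**Figure D5:**
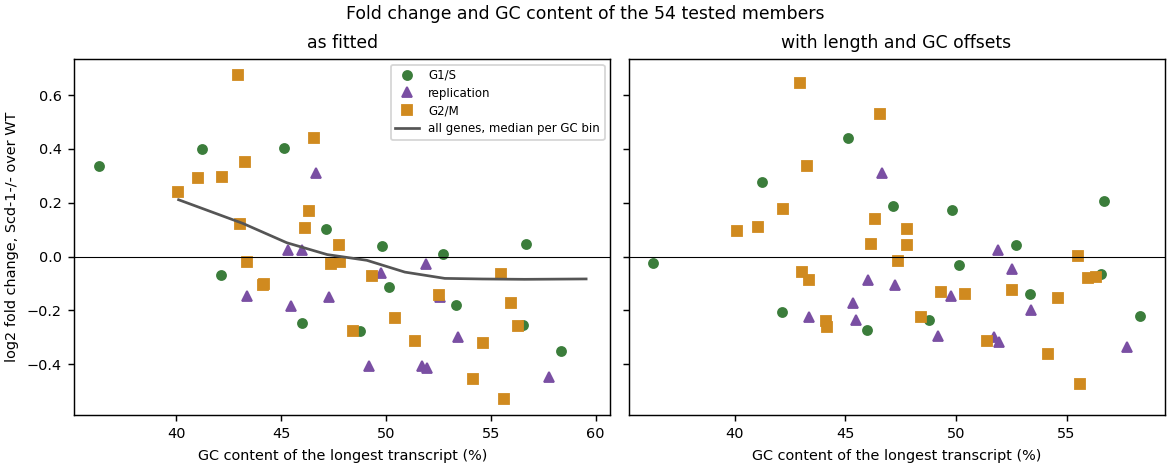
Log2 fold change (Scd-1-/- over WT) of the 54 tested members against the GC content of the longest transcript, as fitted (left, with the median of all genes in 10 bins of GC content as a line) and with length and GC offsets (right). On the left, members with at least 48.4% GC are nearly all below 0, as is the line for all genes there; on the right the slope is weaker and Cenpe, Mki67 and Cdc20 remain at the edges.

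Promoter letters, which the choice of members did not use, were counted by class. Windows from 250 bases before to 50 bases after the RefSeq transcript start (GRCm38.p6) were at hand for 43 of the 55 members, and were searched on both strands for the CHR (TTTGAA or TTCGAA), the CCAAT box (CCAAT) and an E2F core (TTCCCGC or TTCGCGC and, as further forms, TTGCCGC or TTGGCGC). A gene counted as holding a motif when any of its windows did. An E2F core of the last kind can share letters with a CCAAT box on the other strand. The CHR was in 15 of 20 G2/M genes (75%), 2 of 11 G1/S genes (18.2%) and 2 of 12 replication genes (16.7%), beside 21.7% of 27025 genes with a window. The E2F core was in 6 of 11 G1/S genes (54.5%), 8 of 12 replication genes (66.7%) and 3 of 20 G2/M genes (15%), beside 10.9% of all genes. The CCAAT box was in 85% of the G2/M, 54.5% of the G1/S and 66.7% of the replication genes, beside 41.1% of all. The windows also differed in base composition, with a median GC content of 66.7% in G1/S, 57.3% in replication and 59.8% in G2/M genes beside 52.7% in all genes. A match is a string of letters and not a shown binding site.

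The 150 bases before the transcript start are given for the 3 members called with the block (Cdc20, Cdc25b and Cenpe), for Mki67 as a member with both a CHR and an E2F core, and for Mcm5 and Rrm1 as the most abundant replication genes, 5′ to 3′ on the strand of the gene, with matches of the 3 motifs on either strand in capitals. Cdc20 holds a CHR between CCAAT boxes close to the start, whereas the printed stretches of Cdc25b and Cenpe hold a CCAAT box and no CHR. The full window of Cdc25b has a CHR just after the start and that of Cenpe has none, so the 3 called members do not share this pattern. Mcm5 and Rrm1 each hold an E2F core and a pair of CCAAT boxes. The stretches lie at chr4:118437344-118437493 (Cdc20, minus strand), chr2:131186798-131186947 (Cdc25b, plus), chr3:135212413-135212562 (Cenpe, plus), chr7:135716380-135716529 (Mki67, minus), chr8:75109359-75109508 (Mcm5, plus) and chr7:102441545-102441694 (Rrm1, plus).
Cdc20: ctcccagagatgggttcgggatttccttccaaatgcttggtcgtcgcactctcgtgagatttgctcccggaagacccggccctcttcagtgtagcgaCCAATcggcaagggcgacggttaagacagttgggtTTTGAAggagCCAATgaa
Cdc25b: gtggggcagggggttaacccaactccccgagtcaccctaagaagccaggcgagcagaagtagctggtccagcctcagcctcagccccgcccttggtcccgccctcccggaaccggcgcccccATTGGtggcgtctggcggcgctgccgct
Cenpe: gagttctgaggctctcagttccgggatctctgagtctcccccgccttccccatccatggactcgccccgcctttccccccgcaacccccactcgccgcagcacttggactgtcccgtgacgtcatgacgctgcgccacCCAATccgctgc
Mki67: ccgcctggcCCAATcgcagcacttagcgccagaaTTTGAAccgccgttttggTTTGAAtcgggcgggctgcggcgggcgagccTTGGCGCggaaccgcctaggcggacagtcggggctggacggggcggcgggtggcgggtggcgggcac
Mcm5: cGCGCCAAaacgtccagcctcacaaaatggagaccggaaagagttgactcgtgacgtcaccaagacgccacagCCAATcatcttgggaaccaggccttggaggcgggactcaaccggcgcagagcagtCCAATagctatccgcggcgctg
Rrm1: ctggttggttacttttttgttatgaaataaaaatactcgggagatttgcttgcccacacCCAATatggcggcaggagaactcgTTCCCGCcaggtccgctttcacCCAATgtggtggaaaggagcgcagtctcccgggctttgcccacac

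Other genes of the same processes were taken from lists written for this purpose. Of 45 tested genes of replication outside the members, 34 had a log2 fold change below 0, with a median of -0.10, and 0 had an adjusted p under 0.05 in edgeR without the block (4 at an unadjusted p under 0.05, 8.89% beside 10.1% of all genes; DESeq2 gave 1 with an adjusted p under 0.05) and 1 with it (2.22% beside 4.70% of all genes). That gene was Rpa1, the large subunit of the single-strand DNA binding complex RPA. It was at 44.8, 53.3 and 55.9 FPKM in WT and 23.7, 30.7 and 27.3 FPKM in Scd-1-/- libraries, well apart (log2 fold change -0.89, adjusted p = 0.0837, and 0.00431 with the block, edgeR with Benjamini-Hochberg adjustment). The next lowest was Timeless, a fork protection gene, at -0.46, and the highest were Pola1 and Orc2, at 0.36 and 0.33.

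Of 60 tested genes of mitosis outside the members, 24 had a log2 fold change above 0 and 36 below, with a median of -0.07, and 0 had an adjusted p under 0.05 in edgeR without the block (4 at an unadjusted p under 0.05, 6.67% beside 10.1% of all genes; DESeq2 gave 1 with an adjusted p under 0.05) and 1 with it (1.67% beside 4.70% of all genes). That gene was Espl1, separase, the protease that the APC/C with Cdc20 sets free. It was at 25.6, 32.4 and 34.5 FPKM in WT and 20.8, 22.6 and 19.3 FPKM in Scd-1-/- libraries, with no overlap (log2 fold change -0.54, adjusted p = 0.248, and 0.0436 with the block, edgeR with Benjamini-Hochberg adjustment). Pimreg was at -0.42, and the kinetochore genes Spc25 and Cenpk were at 0.68 and 0.48.

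Among 6 tested genes of inhibitors of the cycle kinases, Cdkn2a and Cdkn2b passed the thresholds of the study, which 0.738% of all genes met, and were higher in Scd-1-/- Teff. The counts are per gene, so which transcripts and products of Cdkn2a they stand for is not known. Cdkn2a was at 8.96, 2.43 and 3.30 FPKM in WT and 24.1, 43.4 and 41.8 FPKM in Scd-1-/- libraries (log2 fold change 2.90), and Cdkn2b at 2.37, 0.921 and 1.56 FPKM and 5.76, 10.2 and 12.7 FPKM (log2 fold change 2.57), with no overlap for either. Their adjusted p was 0.0911 and 0.0863, and 0.0185 for each with the block (edgeR with Benjamini-Hochberg adjustment). Neither gene passed the thresholds without WT replicate 2 or 3, without Scd-1-/- replicate 2 or 3, or with the block together with offsets for transcript length and GC content. Cdkn1a was at 35.0, 69.7 and 57.3 FPKM in WT and 56.7, 102 and 101 FPKM in Scd-1-/- libraries, higher in each pair (log2 fold change 0.71, adjusted p = 0.485, and 0.0112 with the block, edgeR with Benjamini-Hochberg adjustment). Cdkn2c was at 15.5, 16.3 and 16.5 FPKM in WT and 16.5, 20.4 and 21.6 FPKM in Scd-1-/- libraries, without overlap but with Scd-1-/- replicate 1 close to WT replicate 3 (log2 fold change 0.30, adjusted p = 0.572, and 0.213 with the block, edgeR with Benjamini-Hochberg adjustment). Cdkn2c, Cdkn1b and Cdkn2d, the last 2 at log2 fold changes of -0.11 and -0.02, passed neither rule.

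Exons of several members overlap those of a gene on the other strand, and since the methods and the labels name different library kits, whether reads were counted by strand is unknown. Examples are Ccnd1, which fell under the FPKM filter and had a mean of 2.33 counts beside 229 for LTO1, Ccne2 (193 beside 406 for Ints8), Rb1 (488 beside 457 for Rcbtb2), Ccnd3 (1189 beside 1120 for Bysl) and Cdk4 (5689 beside 2839 for Tspan31). For Cdc20, 53 of 1868 exon bases overlap Elovl1. Some partners on the other strand had a mean of 0 counts, such as Tnnc2 beside 3525 for Ube2c (592 shared exon bases). Others at 0 were Gm43126 beside 2995 for Ccnd2 (372 bases) and Gm44985 beside 3036 for Plk1 (156 bases).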

How the data were processed

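The authors aligned the reads with HISAT2 and made per-gene counts with StringTie (1.3.0, after FastQC, on GRCm38, per the submitters' processing notes). The authors deposited these raw counts, without normalization, and FPKM, in which a TMM factor was not found: across libraries, counts per FPKM followed the totals to within a ratio of 1.0005. The methods name a stranded total RNA kit and the labels a poly(A) RNA kit.

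Genes whose FPKM averaged 1 or more were tested on the deposited counts with edgeR (4.0.16, R 4.3.3), quasi-likelihood test, TMM factors (0.986 to 1.03) and genotype as the term, and p-values were adjusted by Benjamini-Hochberg over 9627 genes. Standard errors are the fold change over the root of the F statistic. Alternatives were DESeq2 (1.42.0), limma (3.58.1) on log2(FPKM + 1) or log2(FPKM + 0.1), other scalings and filters, 1 library left out, replicates 2 and 3 alone, a replicate block and, added after seeing the data, length and GC offsets (smooth curves per library). Fits were tested on simulated data.

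Neither source says what a replicate number is. The paper gives its results as means of at least 3 independent experiments, without tying these to the numbers of the libraries. Deviations from the group means correlated between same-numbered libraries at r = 0.595, 0.306 and 0.470 over all tested genes, so the numbers were taken to pair the libraries and the block is given where it changes a call. Scd-1-/- replicate 2 correlated better with WT replicate 3 (0.380).

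Gene positions are from GENCODE M21 (34267 of 34745 identifiers matched) and promoters from RefSeq. The members and lists were chosen with earlier results of these data known. Per-library values are given for members called with or without the block, for the 3 largest fold changes and 3 highest mean FPKM per class and for members under the FPKM minimum, and of the other lists for called genes, with the 2 largest changes each way named. No table of the authors' own comparisons was used.
Values of 2 marker genes are not reported here.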

Additional observations from a re-analysis of the deposited data

How the results depend on the processing

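Of the 54 tested members, 0 passed the thresholds of the study in any of the 18 alternatives. An adjusted p under 0.05 was reached by 0 members in the fit without the block (0.114% of all genes) and in 14 alternatives (0.0208% to 2.76%). It was reached by 3 with the replicate block (4.70% of all genes) and 7 with replicates 2 and 3 only (12.6%). Length and GC offsets with the block gave 5 (3.29%), and no filter on low values with the block gave 4 of 55 (4.36% of 17192 genes). Added to the fit without it, the block changed the calls of Cdc20, Cdc25b and Cenpe and of no other member. With the offsets it also gave Cdk6 and Mki67, and with no filter Mcm5. The offsets, and the block with no filter, were chosen after seeing the data. The medians of the classes moved by less than the SD between libraries, pooled over genotypes. Those of the replication genes (-0.27 to -0.06) and the G2/M genes (-0.09 to -0.02) stayed below 0, and that of the G1/S genes (-0.03) ranged from -0.15, with a mean FPKM of at least 5, to 0.04, turning in sign without WT replicate 3 or Scd-1-/- replicate 1 (0.02). Members called by replicate number ranged from 13, by limma on log2(FPKM + 0.1), to 17. The share of all genes was 15.9% in the edgeR fit with 16 members and 18.5% with the offsets (17 members). It was not counted for the other settings, so their numbers have no background here.

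All genes past the thresholds of the study numbered 71, and 148 with no filter, 43 with a mean FPKM of at least 5, 161 by DESeq2, 184 with the block, 369 with replicates 2 and 3 only, 144 with the offsets and the block, 312 with no filter and the block, and 25 to 163 without 1 library. All genes with an adjusted p under 0.05 numbered 11, and in the same order 84, 18, 266, 452, 1213, 317, 750 and 2 to 182, and 17 by limma on log2(FPKM + 1). The lowest counts came without WT replicate 2 or 3 or Scd-1-/- replicate 3, and the highest without Scd-1-/- replicate 1.

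Of the other pathway genes, 2 passed the thresholds (0 with the offsets and the block, 0 to 2 without 1 library), the 0 coming without WT replicate 2 or 3 or Scd-1-/- replicate 2 or 3. An adjusted p under 0.05 was reached by 0, and by 3 with no filter, 4 by DESeq2, 5 with the block, 13 with replicates 2 and 3 only, 5 with the offsets and the block, 6 with no filter and the block and 0 to 3 without 1 library. The cause of these moves was not tested.

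The sign of the log2 fold change turned for Pcna with total counts only (-0.00027), limma with either pseudocount (-0.0085 and -0.0086), the offsets (-0.17) and the offsets with the block (-0.17), with a range of -0.091 to 0.16 without 1 library. It turned for Ube2c with the offsets (0.0018) and with the block as well (0.0056), with a range of -0.14 to 0.020 without 1 library. Rrm1 ranged from -0.29 to 0.036, its sign turning without Scd-1-/- replicate 1. None of these values was past a threshold. Fits that left out 1 library pooled the spread of the others.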
